A study of Capsella grandiflora and Capsella rubella and Capsella orientalis with 27 samples.

Results

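The genes described here had low messenger RNA levels in dividing flower buds and high levels both in expanding flower buds and in seedlings, in each of 3 species of Capsella. They were chosen from the measured values. Levels are given as CPM, the count of a gene divided by the sum of all gene counts of its library and multiplied by 1000000. A gene was taken when, as means of 3 libraries and in every species, it reached at least 10 CPM in expanding buds and in seedlings, when these 2 stages were under 4-fold apart, and when both were at least 4-fold over dividing buds. Ratios were formed after adding 0.1 CPM. Of the 26521 genes listed, 27 met all conditions, so a cap of 300 genes was not reached. With the stages exchanged in the same rule, 0 genes were low only in expanding buds and 164 were low only in seedlings.

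The study compared C. grandiflora, an outcrossing species, with the self-fertilising species C. rubella and C. orientalis. RNA was sequenced from expanding and maturing flower buds, from dividing flower buds and from seedlings 10 days old, with 3 libraries in each of the 9 groups. No treatment is named and the labels give no plant line, and they do not say whether libraries of a group came from separate plants, so p-values measure only how these samples vary, and that spread may be technical. Gene counts per library ranged from 10612848 to 40909319, the lowest in seedlings of C. grandiflora. Replicate libraries differed beyond sampling noise, with a chi-square per degree of freedom of 5.14 to 43.0. The labelled stages were not checked against marker genes here, because the files pair the gene identifiers with no names.

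Flower buds pass from a phase in which organs grow mainly by cell division to a phase in which they grow mainly by cell expansion and mature. A seedling at this age holds differentiated leaf, stem and root tissue as well as dividing cells at its growing tips. A transcript that is scarce in dividing buds and abundant in the other samples therefore groups a floral stage with a vegetative sample. In whole organs, fewer cells of a type that hold a transcript and less of that transcript per cell cannot be told apart. Because no names come with the identifiers, no role is given for any of the 27 genes, and they are ordered below by level, by size of the dip and by how they differed between species.

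**Figure D1:**
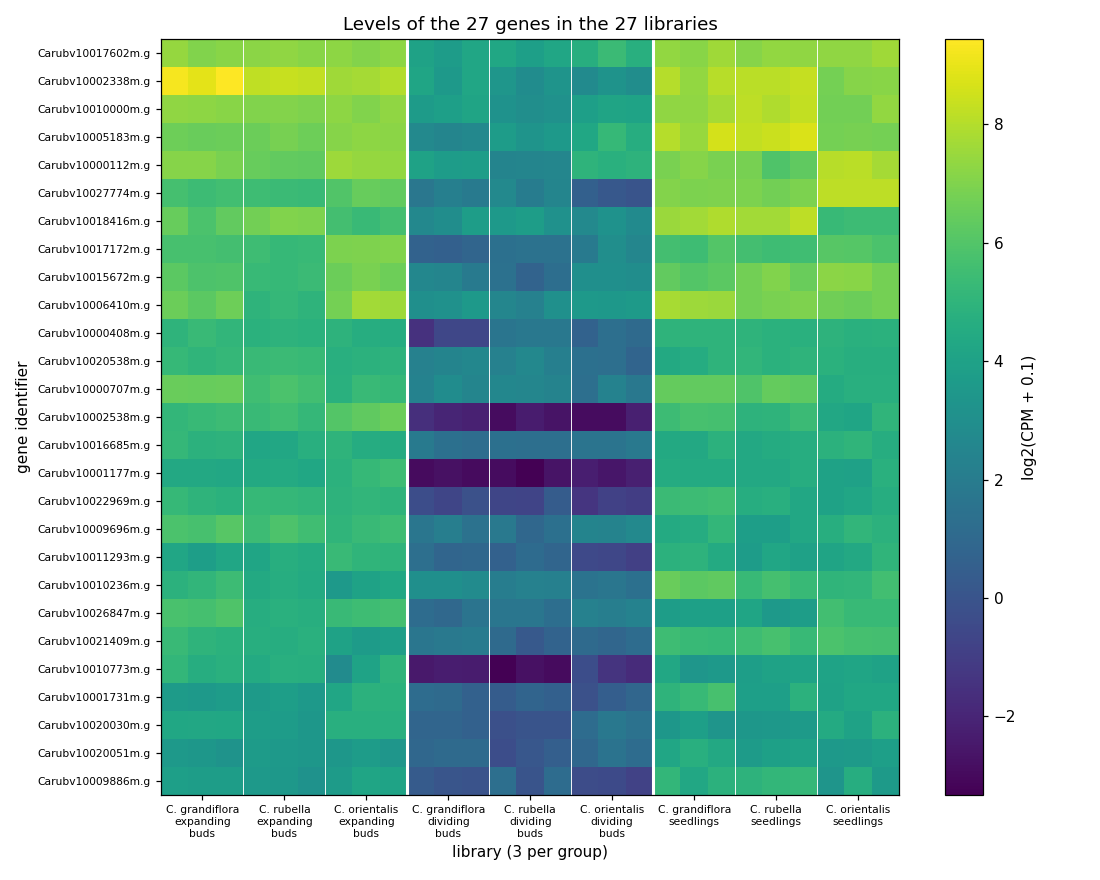
Levels of the 27 genes in all 27 libraries, as log2(CPM + 0.1) by colour, with genes in rows ordered from the highest to the lowest minimum over expanding-bud and seedling means and with libraries in columns. The 9 columns of dividing buds are darker than the columns on both sides in each row, and the rows of Carubv10002538m.g and Carubv10001177m.g are among the darkest there.

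The stage pattern fixed by the choice of genes was present in single libraries and not only in means. In each species, all 27 genes stood lower in every library of dividing buds than in any of the 6 libraries of the other stages. Over all genes listed, 9.11% had that arrangement in C. grandiflora, 10.9% in C. rubella, 8.66% in C. orientalis and 4.10% in all 3 species, and since the rule used these stages the figure is given as a description. Median levels of the 27 genes in C. grandiflora were 38.4 CPM in expanding buds, 3.41 CPM in dividing buds and 43.4 CPM in seedlings. The corresponding medians were 35.7, 2.65 and 34.4 CPM within C. rubella and 37.0, 2.81 and 29.4 CPM in C. orientalis. The medians of the 3 species were thus close in expanding buds, but ran from 29.4 to 43.4 CPM in seedlings. Close medians do not mean that single genes were alike, and their differences are described below.

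The size of the dip varied widely among the genes. The ratio of the lower of the high stages to dividing buds ran from 4.49 to 151 in C. grandiflora with a median of 9.33, from 4.92 to 212 in C. rubella with a median of 8.81, and from 4.04 to 145 in C. orientalis with a median of 8.90. In each species 13 of the 27 genes had a ratio of at least 10. The ratio was smallest in C. orientalis for 12 genes, in C. grandiflora for 9 and in C. rubella for 6. Relaxing the ratio to 3-fold took in 49 genes, and raising it to 6-fold left 16.

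The rule was met in C. grandiflora alone or with other species by 104 genes, in C. rubella by 100 and in C. orientalis by 71, and by 175 genes in at least 1 species. C. orientalis was the species that limited the group most often. Of the genes that met the rule in both other species, 30 failed it in C. orientalis, 14 failed it in C. rubella and 2 failed it in C. grandiflora. Of the 30 that failed in C. orientalis, 26 had less than a 4-fold ratio over dividing buds there, and 18 failed for no other reason. The median ratio of all 30 genes in C. orientalis was 2.49.

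The genes nearest to the limits show what they kept in and out. Carubv10005183m.g was just inside, with a ratio of 4.04 in C. orientalis, and Carubv10009886m.g was inside with 10.5 CPM in expanding buds of C. rubella. Carubv10005414m.g was just outside with a ratio of 3.98 in C. orientalis. Carubv10007180m.g was outside because seedlings and expanding buds of C. rubella were 4.05-fold apart. Leaving out single libraries removed Carubv10005183m.g in 2 of 27 cases, Carubv10002538m.g, Carubv10010236m.g and Carubv10020051m.g in 1 case each, and no other of the 27 genes.

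The summed level of the 27 genes was many times lower in dividing buds than at the other stages, as the rule requires. In expanding buds the sum was 2027 ± 171 CPM in C. grandiflora, 1511 ± 70.7 CPM within C. rubella and 1875 ± 134 CPM in C. orientalis (SD, n = 3 each). Its level in dividing buds was 138 ± 10.2, 116 ± 7.55 and 180.2 ± 24.6 CPM in the same order of species, and in seedlings 2222 ± 253, 2263 ± 158 and 1865 ± 43.9 CPM. In CPM, every library of seedlings of C. rubella lay above all its libraries of expanding buds, while in the other species these stages overlapped. The sums were not formed with another scaling, and for single genes the order of these stages depended on the scaling, as given below. Without Carubv10002338m.g, the gene with the highest mean in any group, the sums in expanding buds were 1431 ± 86.5, 1195 ± 55.0 and 1655 ± 111 CPM, and C. orientalis, not C. grandiflora, then had the highest sum.

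Among the 6 genes with the highest minimum level, Carubv10017602m.g was the most even across the high stages. It had 172, 129 and 142 CPM in the 3 libraries of expanding buds and 165, 142 and 194 CPM in seedlings of C. grandiflora, against 16.5, 13.2 and 18.9 CPM in dividing buds. In C. rubella the values were 147, 159.7 and 145 CPM in expanding buds, 19.5, 14.9 and 18.4 CPM in dividing buds and 141, 167 and 159 CPM in seedlings. In C. orientalis they were 153, 133 and 154 CPM, 25.4, 40.9 and 26.1 CPM and 157, 161 and 195 CPM at the same stages. All 18 libraries of the high stages lay above 100 CPM, their ranges overlapped between species, and dividing buds of C. orientalis lay above those of both other species.

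Carubv10002338m.g was less even. Expanding buds of C. grandiflora held 609.8, 484 and 695 CPM, those of C. rubella 303, 334 and 311 CPM and those of C. orientalis 200.1, 209 and 251 CPM. In dividing buds it stood at 17.8, 12 and 18.4 CPM, 10.3, 7.40 and 9.64 CPM and 6.75, 9.46 and 7.52 CPM in these species. The 3 species did not overlap in expanding buds, where C. grandiflora was highest and C. orientalis lowest. In seedlings C. grandiflora had 264, 165 and 269.9 CPM and C. rubella 282, 283 and 316 CPM, and both lay above the 111, 139 and 144 CPM of C. orientalis.

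The next 4 genes by minimum level were Carubv10010000m.g, Carubv10005183m.g, Carubv10000112m.g and Carubv10027774m.g. For Carubv10010000m.g, C. rubella had 129, 133 and 125 CPM in expanding buds, 8.98, 7.82 and 8.83 CPM in dividing buds and 291, 238 and 303 CPM in seedlings. In C. grandiflora the values were 161, 156 and 142, then 12.6, 14.8 and 17.2, then 158, 162 and 208 CPM, and in C. orientalis 152, 132 and 162, then 14.8, 17.7 and 16.9, then 104, 105 and 165 CPM. C. rubella was thus the lowest species in dividing buds and the highest in seedlings, with no overlap in either stage. The other 3 of these genes are given with the comparisons between species.

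By the median over species of the same ratio, the largest dips belonged to Carubv10001177m.g, Carubv10002538m.g and Carubv10010773m.g, which were close to the limit of detection in dividing buds. Carubv10001177m.g had 20.6, 20.9 and 20.3 CPM in expanding buds and 23.1, 21.9 and 22.4 CPM in seedlings of C. grandiflora. In C. rubella these were 21.2, 22.3 and 19.0 CPM and 20.9, 21.0 and 24.9 CPM, and in C. orientalis 28.9, 37.7 and 44.5 CPM and 16.3, 15.8 and 27.8 CPM. The gene was thus highest in expanding buds of C. orientalis, above all 6 libraries of that stage in the other species. Its dividing buds held 4 counts over 3 libraries in C. grandiflora, 3 in C. rubella and 8 in C. orientalis. Pooled over the group these counts correspond to 0.0375, 0.0356 and 0.0979 CPM, with exact 95% binomial (Clopper-Pearson) intervals of 0.0102 to 0.0961, 0.00735 to 0.104 and 0.0423 to 0.193 CPM. The intervals cover counting error only. They overlap, but overlap of separate intervals is not a test of a difference, so none is drawn between species from these counts.

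Carubv10002538m.g was listed with 18, 5 and 5 counts over the dividing-bud libraries of C. grandiflora, C. rubella and C. orientalis. Its expanding buds held 34.6, 38.3 and 42.3 CPM, 40.5, 45.2 and 36.5 CPM and 64.8, 79.3 and 95.9 CPM in these species, and its seedlings 43.4, 52.4 and 50.4 CPM, 30.3, 31.3 and 41.5 CPM and 20.1, 17.9 and 32.6 CPM. Levels in expanding buds of C. orientalis lay above all 6 libraries of the other species, while in seedlings C. orientalis lay below C. grandiflora. Carubv10010773m.g was listed with 10, 2 and 33 counts over dividing buds in the same order. Its expanding buds held 34.9, 24.3 and 27.8 CPM, 22.3, 26.2 and 25.4 CPM and 6.98, 16.7 and 31.2 CPM, and the libraries of C. orientalis spread more widely than those of the other species, with replicate 1 the lowest.

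**Figure D2:**
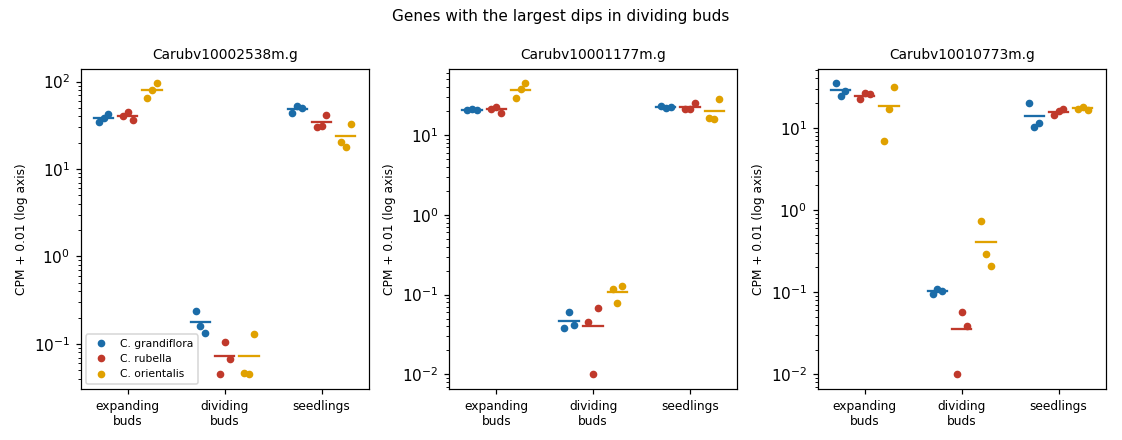
CPM (plus 0.01, log axis) in every library of the 3 genes with the largest dips by the median over species, by stage and species, with each point a library and each bar the mean of a group. All dividing-bud points lie below 1 CPM and all points of the other stages above 5 CPM.

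Carubv10002538m.g and Carubv10001177m.g also varied together from library to library. After subtracting group means of log2 levels, their deviations had a Pearson correlation of 0.898 over the 18 libraries of expanding buds and seedlings. This was the highest of the 351 pairs among the 27 genes, was picked for that reason, and is given without a test. The median over the 351 pairs was 0.19, and the median between the 27 genes and all other genes was -0.0028. The next pair, Carubv10009696m.g and Carubv10001731m.g, had a correlation of 0.878. All values of a library share its depth and RNA sample, and the part of these in the correlations was not tested.

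By the median over species, the smallest dips belonged to Carubv10009696m.g, Carubv10020051m.g and Carubv10010236m.g. Within single species the smallest ratios were 4.49 for Carubv10010236m.g in C. grandiflora, 4.92 for Carubv10026847m.g in C. rubella and 4.04 for Carubv10005183m.g in C. orientalis. For Carubv10009696m.g, seedlings were the lower of the high stages. Its levels in C. rubella were 42.5, 57.7 and 46.8 CPM in expanding buds, 3.47, 1.79 and 2.53 CPM in dividing buds and 14.0, 14.2 and 20.1 CPM in seedlings. For Carubv10020051m.g the levels of C. orientalis were 10.5, 13.1 and 10.4 CPM, 1.80, 2.78 and 2.22 CPM and 11.7, 12.5 and 14.5 CPM at these stages. The stages did not overlap between dividing buds and either other stage for these genes, although the ratios of Carubv10020051m.g were 5.18 in C. grandiflora, 10.4 in C. rubella and 4.84 in C. orientalis.

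Which of the high stages was higher depended on the gene, on the species and on how libraries were scaled. In CPM, the mean in seedlings exceeded that in expanding buds for 17 genes in C. grandiflora, 17 in C. rubella and 9 in C. orientalis. On the scale of the fitted model, which adjusts libraries by TMM factors between 0.821 and 1.19, the counts were 17, 21 and 16, so the count for C. orientalis in particular rested on the scaling. In CPM, 6 genes were higher in seedlings in all 3 species, and the fitted scale gave 9, among them all 6 (Carubv10017602m.g, Carubv10027774m.g, Carubv10015672m.g, Carubv10010236m.g, Carubv10020051m.g and Carubv10021409m.g). In CPM, 6 genes were higher in expanding buds in all 3 species, but on the fitted scale only Carubv10009696m.g was. The order of the stages differed among species for 15 genes in CPM and for 17 on the fitted scale. Since the rule held these stages under 4-fold apart, the size of the difference is limited by the choice of genes.

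Differences between species were tested within each stage, since the rule set no condition on them, although its shared floors limit how far the species can differ. All 27 genes passed the filter on low counts, as did 23186 genes in all. The shares over all genes given below are not matched for level. In expanding buds of C. grandiflora, for example, 12834 genes reached the 10 CPM that the rule asked of the 27. Folds are log2 values from edgeR's quasi-likelihood test with Benjamini-Hochberg adjustment over all 23186 genes, and a gene was called at an adjusted p under 0.05. Any 2 of the 3 comparisons within a stage share the libraries of 1 species, so their counts are not independent of each other. Each of the 27 genes was called in at least 1 of the 9 comparisons. Single comparisons called 43.1% to 67.8% of all genes, and the share called in at least 1 of them was not counted. The result is therefore given as a description of the 27 genes only.

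In expanding buds, C. rubella had lower levels than C. grandiflora of most of the genes that differed. Of the 27 genes, 16 were called, against 59.6% of all genes tested. Called lower were 15, against 29.5%, and called higher was 1, against 30.2%. The median log2 fold of the 27 genes was -0.39, beside 0.01 over all genes. The largest decreases with no overlap of libraries were those of Carubv10006410m.g, at -1.56 (SE 0.19, adjusted p = 1.88e-07), and Carubv10026847m.g, at -1.23 (SE 0.13, adjusted p = 3.79e-08), by edgeR's quasi-likelihood test with Benjamini-Hochberg adjustment. Carubv10006410m.g held 94.1, 74.8 and 97.9 CPM in C. grandiflora and 31.5, 36.4 and 31.5 CPM within C. rubella. Carubv10026847m.g held 54.0, 51.1 and 60.8 CPM in C. grandiflora and 24.6, 27.4 and 25.6 CPM within C. rubella. In both genes every library of C. rubella was below the lowest of C. grandiflora by a wide margin.

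The gene called higher in C. rubella was Carubv10018416m.g, with 88.6, 57.3 and 84.2 CPM in C. grandiflora and 104, 129 and 126 CPM within C. rubella. Its log2 fold was 0.50 (SE 0.20, adjusted p = 0.0371) by edgeR's quasi-likelihood test with Benjamini-Hochberg adjustment. The call was lost with RLE size factors (adjusted p = 0.0729), with DESeq2 (adjusted p = 0.0841) and without C. grandiflora replicate 2 (adjusted p = 0.223), C. rubella replicate 2 (adjusted p = 0.110) or C. rubella replicate 3 (adjusted p = 0.0942). With a fold of at least 1.5 also asked for, 9 genes were called, all lower in C. rubella.

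C. orientalis differed from C. grandiflora in expanding buds in both directions. Of the 27 genes, 22 were called, against 67.8% of all genes. Called higher were 11, against 32.7%, and called lower were 11, against 35.1%. Carubv10017172m.g had 121, 127 and 129 CPM in C. orientalis and 53.3, 52.1 and 48.6 CPM in C. grandiflora, a log2 fold of 1.22 (SE 0.14, adjusted p = 8.27e-08) by edgeR's quasi-likelihood test with Benjamini-Hochberg adjustment. Carubv10002538m.g, given by library above, had a fold of 0.99 (SE 0.16, adjusted p = 7.59e-06) in the same test with Benjamini-Hochberg adjustment in edgeR. Carubv10002338m.g was lower in C. orientalis, at -1.52 (SE 0.19, adjusted p = 1.64e-07), as was Carubv10000707m.g, at -1.47 (SE 0.16, adjusted p = 2.80e-08), both by edgeR with Benjamini-Hochberg adjustment. Carubv10000707m.g held 27.1, 40.3 and 36.5 CPM in C. orientalis and 93.3, 87.7 and 93.3 CPM in C. grandiflora, so that the highest library of the first was under the lowest of the second.

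Between the selfing species, 19 of the 27 genes were called in expanding buds, against 62.1% of all genes. C. orientalis was higher for 13, against 29.6%, and lower for 6, against 32.6%. The count of lower genes was 3 without C. rubella replicate 2 or without C. orientalis replicate 1. The median log2 fold of the 27 genes was 0.32, beside -0.02 over all genes. Carubv10006410m.g had the largest difference, with 109, 203 and 192 CPM in C. orientalis and a log2 fold of 2.41 (SE 0.19, adjusted p = 1.20e-10) by edgeR's quasi-likelihood test with Benjamini-Hochberg adjustment. Replicate 1 of C. orientalis was the lowest of its group for this gene, and still lay above all libraries of C. rubella. Carubv10017172m.g differed by 1.71 (SE 0.15, adjusted p = 4.13e-10) in the same edgeR test with Benjamini-Hochberg adjustment. Lower in C. orientalis were Carubv10018416m.g, with 48.7, 40.5 and 49.0 CPM and a fold of -1.32 (SE 0.21, adjusted p = 6.66e-06), and Carubv10021409m.g, with 16.3, 12.5 and 14.0 CPM against 25.9, 24.5 and 27.5 CPM and a fold of -0.80 (SE 0.15, adjusted p = 5.35e-05), both by edgeR with Benjamini-Hochberg adjustment.

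Relative to C. grandiflora, 6 of the 27 genes in expanding buds were called lower in C. rubella but higher in C. orientalis. The reverse was called for 1 gene. More genes, 8, were called lower in both selfing species, and 0 were called higher in both. No share over all genes is given for these patterns, so the counts describe the 27 genes only. The genes given next are from the 6 called lower in C. rubella but higher in C. orientalis. For Carubv10015672m.g, expanding buds held 38.8, 37.6 and 42.2 CPM within C. rubella, while C. grandiflora had 75.7, 59.5 and 60.9 CPM and C. orientalis 96.7, 118 and 98.1 CPM. The log2 folds against C. grandiflora, which share its libraries, were -0.87 in C. rubella and 0.60 in C. orientalis. For Carubv10020030m.g the levels were 13.5, 13 and 10.8, then 19.6, 20.3 and 19.5, then 26.8, 26.1 and 26.7 CPM in the same order, with folds of -0.81 and 0.35. In both genes the 3 species formed separate ranges in expanding buds.

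In dividing buds, where all 27 genes were low, the species still differed for many of them. Between C. rubella and C. grandiflora 14 were called (51.7% of all genes), of which C. rubella was higher for 5, against 24.0%, and lower for 9, against 27.7%. Between C. orientalis and C. grandiflora 16 were called (59.3% of all genes), of which C. orientalis was higher for 9, against 30.1%, and lower for 7, against 29.3%. Against C. rubella 20 were called (58.6% of all genes), and C. orientalis was higher for 12, against 31.1%, and lower for 8, against 27.5%. In the first of these comparisons the 5 higher genes became 3 without C. rubella replicate 1, and in the last the 8 lower genes became 5 without C. orientalis replicate 1. The share of the 27 genes called was near that of all genes in the first 2 comparisons, at 51.9% and 59.3%, and stood at 74.1% in the third, a gap that was not tested. The median size of the log2 fold, whatever its sign, was 0.75, 0.94 and 1.01 for the 27 genes in these 3 comparisons, beside 0.39, 0.46 and 0.48 over all genes. Only 4, 3 and 5 of the 27 genes reached 10 CPM in dividing buds of C. grandiflora, C. rubella and C. orientalis. The median coefficient of variation of the 27 genes there was 19.3%, 16.8% and 21.7%, against 5.51%, 4.86% and 4.35% over all genes at 10 CPM or more. In expanding buds, where all 27 reached 10 CPM, it was 10.8%, 8.48% and 12.9%, against 7.93%, 4.72% and 6.79%. For seedlings, where all 27 did so too, it was 15.5%, 12.8% and 12.3%, against 12.1%, 10.4% and 6.74%. The part of low counts in the larger folds was not tested.

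The largest difference between C. rubella and C. grandiflora in dividing buds was that of Carubv10000408m.g. Its libraries held 0.257, 0.555 and 0.563 CPM in C. grandiflora, 3.02, 3.30 and 3.4 CPM within C. rubella and 1.52, 2.47 and 2.06 CPM in C. orientalis. The log2 fold was 2.84 (SE 0.21, adjusted p = 5.27e-11) for C. rubella and 2.20 (SE 0.23, adjusted p = 1.16e-08) for C. orientalis against C. grandiflora, by edgeR's quasi-likelihood test with Benjamini-Hochberg adjustment. The 3 species did not overlap in dividing buds, whereas in seedlings the gene held 31.0, 31.2 and 31.6 CPM, 31.8, 28.0 and 26.9 CPM and 30.8, 27.2 and 28.3 CPM in these species and was called in none of the 3 comparisons.

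Carubv10005183m.g had 6.29, 5.50 and 6.20 CPM in dividing buds of C. grandiflora, 13.4, 9.62 and 11.7 CPM within C. rubella and 19.0, 38.0 and 24.3 CPM in C. orientalis. Its log2 folds against C. grandiflora were 0.99 (SE 0.24, adjusted p = 0.00130) in C. rubella and 2.26 (SE 0.24, adjusted p = 1.56e-08) in C. orientalis by edgeR with Benjamini-Hochberg adjustment. The species formed separate ranges, with C. orientalis highest and most spread. Carubv10000112m.g was lowest in C. rubella, where it held 5.37, 5.51 and 5.66 CPM, against 16.5, 13 and 13.8 CPM in C. grandiflora and 30.9, 27.8 and 29.9 CPM in C. orientalis. Its fold was -1.35 (SE 0.17, adjusted p = 2.46e-07) for C. rubella against C. grandiflora and 2.47 (SE 0.17, adjusted p = 4.17e-12) for C. orientalis against C. rubella, by edgeR with Benjamini-Hochberg adjustment. Carubv10015672m.g also was lower in C. rubella than in C. grandiflora, at -1.14 (SE 0.23, adjusted p = 2.16e-04) by edgeR with Benjamini-Hochberg adjustment, with libraries at 2.63, 1.56 and 2.38 CPM and 5.95, 5.53 and 3.57 CPM.

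The largest decreases in dividing buds of C. orientalis were those of Carubv10027774m.g and Carubv10011293m.g. Carubv10027774m.g held 1.41, 1.04 and 0.911 CPM there, against 3.20, 4.39 and 3.66 CPM in C. grandiflora and 6.42, 3.96 and 5.52 CPM within C. rubella. Its log2 folds were -1.66 (SE 0.21, adjusted p = 3.89e-07) against C. grandiflora and -2.20 (SE 0.21, adjusted p = 2.23e-09) against C. rubella, by edgeR with Benjamini-Hochberg adjustment. Carubv10011293m.g held 0.613, 0.557 and 0.436 CPM, against 2.40, 1.67 and 1.85 CPM and 1.47, 2.07 and 1.68 CPM, with folds of -1.78 (SE 0.36, adjusted p = 1.49e-04) and -1.62 (SE 0.37, adjusted p = 6.57e-04) by edgeR with Benjamini-Hochberg adjustment. For both genes every library of C. orientalis was below all 6 of the other species.

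Carubv10010773m.g was called higher in dividing buds of C. orientalis than of C. rubella, with a log2 fold of 3.88 (SE 1.51, adjusted p = 0.0306) by edgeR's quasi-likelihood test with Benjamini-Hochberg adjustment. That call rests on 33 counts against 2, a ratio of CPM of 17.0 with an exact 95% interval of 4.35 to 146 for counting error. It was lost without C. orientalis replicate 1 (adjusted p = 0.147), C. rubella replicate 1 (adjusted p = 0.0841) or C. rubella replicate 3 (adjusted p = 0.0753). Only 10 alternatives gave a fold for this gene, against 11 for each other named fold between species, so the call was not tested in all of them. All 3 libraries of C. orientalis, at 0.721, 0.278 and 0.198 CPM, lay above those of C. rubella.

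In seedlings, 12 of the 27 genes were called between C. rubella and C. grandiflora, against 43.1% of all genes. C. rubella was higher for 4, against 20.1%, and lower for 8, against 23.0%. A fit of the compared groups alone gave 2 higher. Carubv10010000m.g and Carubv10015672m.g were the largest increases without overlap, at 0.79 (SE 0.14, adjusted p = 7.56e-05) and 0.67 (SE 0.17, adjusted p = 0.00204) by edgeR's quasi-likelihood test with Benjamini-Hochberg adjustment. Carubv10015672m.g held 105, 129 and 93.2 CPM within C. rubella and 83.5, 64.5 and 75.6 CPM in C. grandiflora. Carubv10001731m.g and Carubv10010236m.g were the largest decreases, at -0.92 (SE 0.22, adjusted p = 0.00141) and -0.81 (SE 0.17, adjusted p = 3.14e-04) by edgeR with Benjamini-Hochberg adjustment. Carubv10001731m.g held 14.6, 14.8 and 29.8 CPM within C. rubella and 31.5, 38.5 and 53.2 CPM in C. grandiflora, with replicate 3 the highest in each group and close to the lowest library of C. grandiflora in C. rubella.

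Between C. orientalis and C. grandiflora 20 of the 27 genes were called in seedlings, against 55.8% of all genes. C. orientalis was higher for 8, against 27.7%, and lower for 12, against 28.1%. Carubv10026847m.g held 48.1, 39.2 and 39.1 CPM in C. orientalis, against 13.9, 15.1 and 15.2 CPM in C. grandiflora and 18.2, 11.6 and 13.5 CPM within C. rubella. Its fold was 1.68 (SE 0.15, adjusted p = 6.79e-10) against C. grandiflora and 1.57 (SE 0.14, adjusted p = 7.67e-10) against C. rubella by edgeR with Benjamini-Hochberg adjustment. Carubv10027774m.g held 292, 291 and 287 CPM in C. orientalis and 133, 120.0 and 128 CPM in C. grandiflora, a fold of 1.35 (SE 0.13, adjusted p = 6.25e-09) by edgeR with Benjamini-Hochberg adjustment. For both genes the libraries of C. orientalis lay far above those of C. grandiflora.

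The largest decrease in seedlings of C. orientalis was that of Carubv10018416m.g. Its 3 libraries held 38.1, 43.4 and 42.6 CPM, against 185, 201 and 243 CPM in C. grandiflora and 206, 206 and 286 CPM within C. rubella. The log2 fold was -2.18 (SE 0.21, adjusted p = 5.85e-09) against C. grandiflora and -2.46 (SE 0.22, adjusted p = 4.92e-10) against C. rubella, by edgeR's quasi-likelihood test with Benjamini-Hochberg adjustment. Carubv10000707m.g held 23.4, 26.1 and 26.2 CPM in C. orientalis and 85.4, 82.6 and 82.1 CPM in C. grandiflora, a fold of -1.57 (SE 0.17, adjusted p = 2.43e-08) by edgeR with Benjamini-Hochberg adjustment. Neither gene overlapped between these species.

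Between the selfing species, 14 of the 27 genes were called in seedlings, against 60.2% of all genes. C. orientalis was higher for 7, against 31.4%, and lower for 7, against 28.8%. Carubv10000112m.g was the largest increase, with 267, 274 and 213 CPM in C. orientalis and 115, 59.9 and 80.2 CPM within C. rubella, a fold of 1.59 (SE 0.14, adjusted p = 9.86e-10) by edgeR with Benjamini-Hochberg adjustment. Carubv10005183m.g was among the largest decreases, with 110.1, 112 and 108 CPM in C. orientalis, 313, 348 and 427 CPM within C. rubella and a fold of -1.69 (SE 0.21, adjusted p = 2.20e-07) by edgeR with Benjamini-Hochberg adjustment. In expanding buds and in dividing buds Carubv10005183m.g was higher in C. orientalis than in C. rubella, by 0.60 and 1.27 on the log2 scale, so its order of species was the opposite in seedlings.

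**Figure D3:**
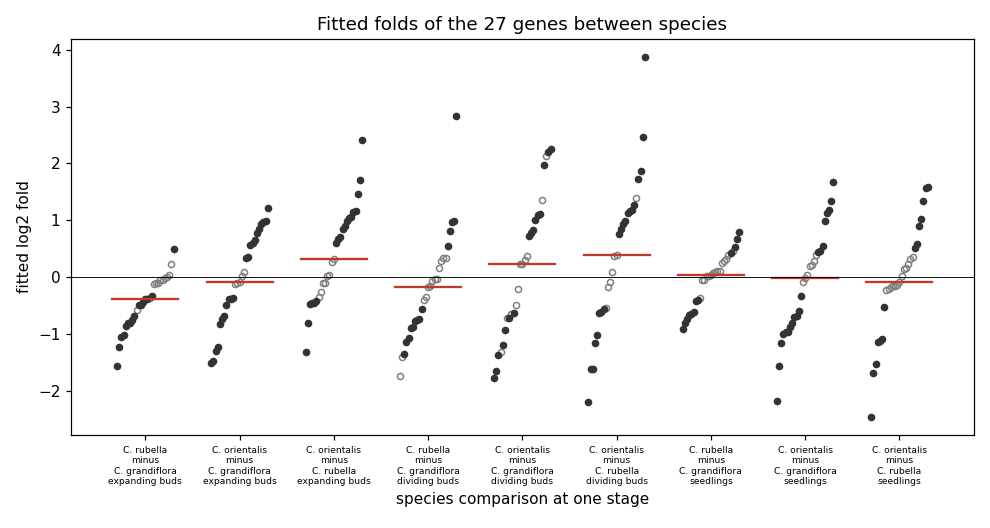
Fitted log2 folds of the 27 genes (vertical axis) in the 9 comparisons between species (horizontal axis), with each point a gene, sorted by fold within a comparison, filled where called at an adjusted p under 0.05 and open where not, and each red bar the median. The first comparison, C. rubella against C. grandiflora in expanding buds, has its median at -0.39 and 1 filled point above 0, and the highest point of all, 3.88, is Carubv10010773m.g in dividing buds of C. orientalis against C. rubella.

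Some genes differed between species in the same direction at all 3 stages. Each stage had its own libraries, but all species were counted on 1 set of identifiers. Sequence differences from those gene models can change a species' counts at every stage, and their part was not tested. C. orientalis was called higher than C. grandiflora at all 3 stages for 4 genes, against 12.7% of all genes, and these were Carubv10000112m.g, Carubv10017172m.g, Carubv10015672m.g and Carubv10020030m.g. It was called lower at all 3 stages for 3 genes, against 11.4%, which were Carubv10002338m.g, Carubv10000707m.g and Carubv10010236m.g. C. rubella was called lower than C. grandiflora at all 3 stages for 3 genes, against 7.57%, which were Carubv10000112m.g, Carubv10006410m.g and Carubv10010236m.g, and higher for 0, against 7.99%. Between the selfing species, C. orientalis was called higher at all 3 stages for 4 genes, against 12.7%, which were Carubv10000112m.g, Carubv10017172m.g, Carubv10026847m.g and Carubv10020030m.g, and lower for 1, Carubv10000707m.g, against 12.7%.

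Carubv10010236m.g was called lower than in C. grandiflora at all 3 stages in C. rubella and in C. orientalis, comparisons that share the libraries of C. grandiflora. In seedlings it held 90.4, 75.3 and 80.1 CPM in C. grandiflora, 39.0, 50.4 and 38.6 CPM within C. rubella and 32.9, 34.1 and 46.9 CPM in C. orientalis. In dividing buds the values were 8.04, 8.0 and 7.10 CPM, 4.17, 4.76 and 4.59 CPM and 2.81, 3.13 and 2.49 CPM. The log2 folds of C. rubella were -0.76 for expanding buds, -0.75 for dividing buds and -0.81 for seedlings, and those of C. orientalis were -1.23, -1.37 and -0.96. C. grandiflora was highest at every stage without overlap, and the size of the dip was not called different between species for this gene.

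Carubv10000112m.g was called in all 9 comparisons. Expanding buds held 140.3, 139.7 and 119 CPM in C. grandiflora, 87.5, 82.6 and 80.9 CPM within C. rubella and 191, 174 and 168 CPM in C. orientalis. Seedlings of C. grandiflora held 117, 139 and 118 CPM. C. rubella was lowest and C. orientalis highest at each stage, without overlap between species. Carubv10017172m.g and Carubv10020030m.g also had their highest means in C. orientalis at each stage. Carubv10017172m.g held 3.68, 7.83 and 5.70 CPM in dividing buds of C. orientalis, 1.52, 1.41 and 1.72 CPM in C. grandiflora and 2.49, 2.73 and 2.73 CPM within C. rubella.

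**Figure D4:**
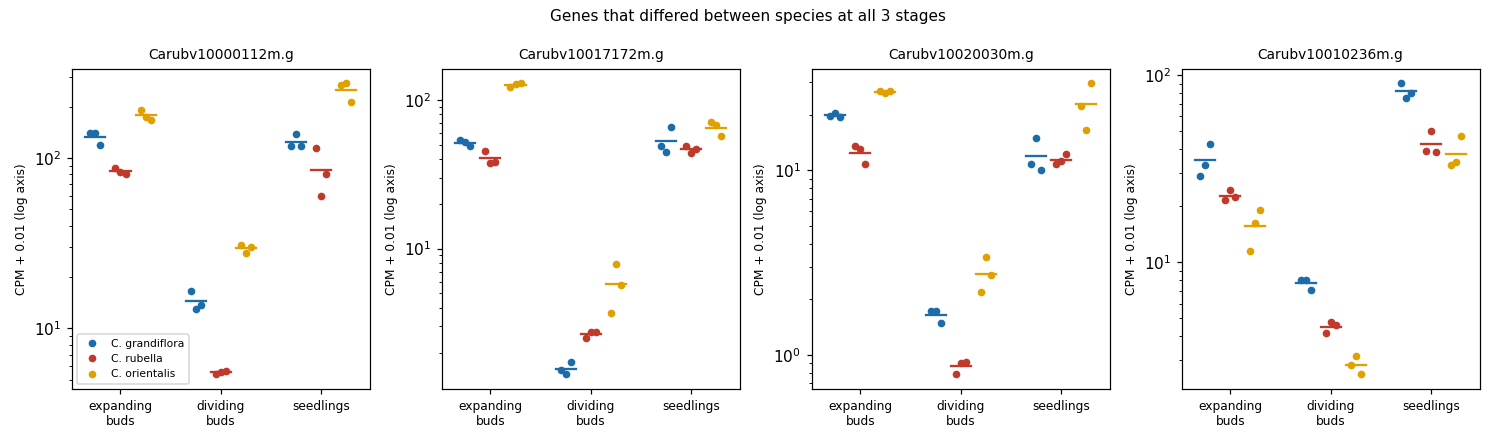
CPM (plus 0.01, log axis) in every library of genes that differed between species in the same direction at all 3 stages, by stage and species, with each point a library and each bar the mean of a group. Carubv10010236m.g is highest in C. grandiflora at each stage, and Carubv10000112m.g is lowest in C. rubella and highest in C. orientalis.

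The depth of the dip itself was compared between species, as the mean log2 level of expanding buds and seedlings minus that of dividing buds. A positive difference means a deeper dip in the first species named. Between C. rubella and C. grandiflora 8 of the 27 genes were called (20.7% of all genes), with a deeper dip in C. rubella for 4, against 11.3%, and a shallower dip for 4, against 9.35%. Between C. orientalis and C. grandiflora 10 were called (27.2% of all genes), deeper in C. orientalis for 3, against 12.7%, and shallower for 7, against 14.6%. Between C. orientalis and C. rubella 13 were called (28.5% of all genes), deeper in C. orientalis for 5, against 13.0%, and shallower for 8, against 15.5%. The 5 deeper dips became 3 without dividing-bud replicate 1 of C. orientalis or replicate 3 of C. rubella. Median differences of the 27 genes were -0.06, -0.35 and -0.42 in these 3 comparisons. The condition of a 4-fold dip in every species limits how shallow the dip of any of them could be.

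Carubv10000408m.g had a deeper dip in C. grandiflora than in either selfing species. The difference was -3.02 (SE 0.23, adjusted p = 1.61e-09) for C. rubella and -2.43 (SE 0.24, adjusted p = 5.72e-08) for C. orientalis against C. grandiflora, by edgeR's quasi-likelihood test with Benjamini-Hochberg adjustment. Its expanding buds held 31.5, 39.4 and 33.4 CPM in C. grandiflora, 28.1, 30.7 and 28.8 CPM within C. rubella and 30.1, 24.7 and 23.8 CPM in C. orientalis. The log2 folds against C. grandiflora there were -0.39 and -0.48, opposite in sign to those in dividing buds. Carubv10005183m.g likewise had a shallower dip in C. orientalis, with differences of -2.56 (SE 0.28, adjusted p = 2.08e-07) against C. grandiflora and -1.82 (SE 0.27, adjusted p = 1.44e-05) against C. rubella in edgeR with Benjamini-Hochberg adjustment. Its expanding buds held 99.6, 91.8 and 96.6 CPM, 94.0, 113 and 99.5 CPM and 141, 155 and 151 CPM, and its seedlings of C. grandiflora 259, 175 and 387 CPM.

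Carubv10027774m.g had the opposite arrangement. Its dip was deeper in C. orientalis by 2.66 (SE 0.23, adjusted p = 5.35e-09) against C. grandiflora and by 3.36 (SE 0.23, adjusted p = 6.00e-11) against C. rubella, in edgeR with Benjamini-Hochberg adjustment. Expanding buds held 63.8, 90.3 and 82.2 CPM in C. orientalis, 51.6, 43.6 and 47.2 CPM in C. grandiflora and 43.8, 41.2 and 39.5 CPM within C. rubella. C. orientalis was thus the highest species in both high stages and the lowest in dividing buds. Carubv10011293m.g also had a deeper dip in C. orientalis, by 2.20 (SE 0.38, adjusted p = 1.08e-04) and 2.26 (SE 0.40, adjusted p = 1.05e-04) against the same species in edgeR with Benjamini-Hochberg adjustment. Its expanding buds held 39.5, 32.9 and 31.2 CPM in C. orientalis, 18.7, 14.4 and 18.4 CPM in C. grandiflora and 17.7, 25.7 and 22.9 CPM within C. rubella.

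**Figure D5:**
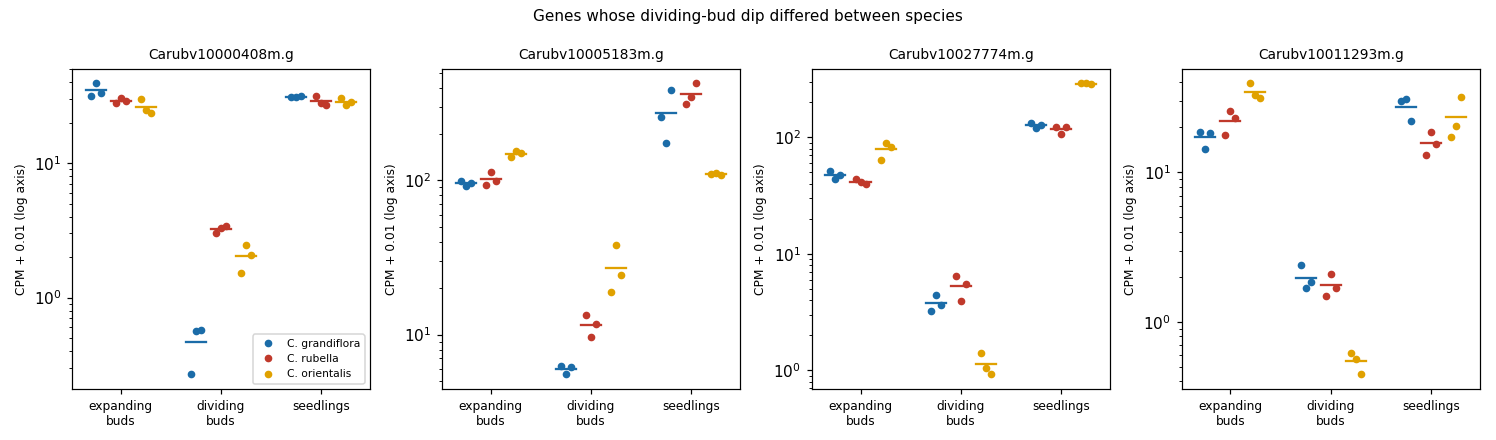
CPM (plus 0.01, log axis) in every library of 4 genes whose dip differed between species, by stage and species, with each point a library and each bar the mean of a group. Carubv10000408m.g and Carubv10005183m.g are lowest in C. grandiflora in dividing buds, and Carubv10027774m.g and Carubv10011293m.g are lowest there in C. orientalis.

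Smaller differences in the dip were called for other genes. Between C. rubella and C. grandiflora the dip of Carubv10015672m.g differed by 1.04 (SE 0.26, adjusted p = 0.00518), that of Carubv10021409m.g by 0.98 (SE 0.24, adjusted p = 0.00402) and that of Carubv10017172m.g by -1.08 (SE 0.25, adjusted p = 0.00316), by edgeR's quasi-likelihood test with Benjamini-Hochberg adjustment. The dip of Carubv10010000m.g was shallower in C. orientalis than in C. rubella, at -1.42 (SE 0.19, adjusted p = 2.66e-06) by edgeR with Benjamini-Hochberg adjustment. For 10 of the 27 genes, among them Carubv10001177m.g, Carubv10002538m.g and Carubv10010773m.g, no difference in the dip was called in any of the 3 comparisons, which does not show that their dips were alike. The share of all genes called in none of the 3 comparisons was not counted, so the 10 are given as a description.

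Of the genes with few values given so far, Carubv10022969m.g had one of the deeper dips, with 0.715, 0.530 and 0.782 CPM in dividing buds and 41.8, 42.6 and 45.7 CPM in seedlings of C. grandiflora. Its seedlings held 24.6, 26.2 and 20.1 CPM within C. rubella and 16.4, 18.6 and 24.6 CPM in C. orientalis, and both were called lower than C. grandiflora. Carubv10016685m.g was called in no comparison of dividing buds, where it held 3.69, 2.52 and 2.28 CPM, 2.52, 2.40 and 2.47 CPM and 2.96, 2.96 and 3.48 CPM in C. grandiflora, C. rubella and C. orientalis. Carubv10020538m.g held 2.49, 2.40 and 1.62 CPM in dividing buds of C. orientalis, below the 4.78, 5.30 and 5.82 CPM of C. grandiflora and the 4.77, 6.08 and 4.53 CPM of C. rubella. Carubv10009886m.g spread most between replicates in seedlings of C. orientalis, at 10.0, 24.9 and 12.2 CPM, a coefficient of variation of 51.2%.

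Replicate libraries moved the 27 genes together to a small degree. In expanding buds of C. grandiflora, 22 of the 27 genes lay above their group mean in replicate 1 and 3 in replicate 2, with median deviations of 0.09 and -0.11 on the log2 scale, while the median over all genes was 0. In seedlings of C. grandiflora 5 of the 27 lay above it in replicate 2, with a median deviation of -0.16. In expanding buds of C. orientalis replicate 1 had a median deviation of -0.12. These median shifts are smaller than the folds of single genes named above. They are not smaller than every median difference between species, such as the -0.06 of the dip between C. rubella and C. grandiflora. The counts of calls with each library left out in turn are given below. Leaving out a library also changes the group mean and the number of libraries, so the part of these shifts in the counts was not tested.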

How the data were processed

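RNA sequencing libraries of 3 Capsella species at 3 stages were analysed from raw read counts per gene, which the authors deposited as 1 file per library. Per the submitters' processing notes, reads were handled with Trimmomatic and HTSeq. For the aligner, genome build, annotation and strand the settings were not given in the sources used here, so reads of overlapping genes on opposite strands, or of near-identical copies, may be shared or lost. All species were counted on 1 set of identifiers, so sequence differences from those gene models can change a species' counts at every stage. The 5 summary rows were left out of library sizes. As group means, 3.04% to 5.57% of listed reads lay outside genes, 3.78% to 4.63% were ambiguous and 4.13% to 9.30% aligned to several places, and the other rows were at 0. Libraries held 10612848 to 40909319 gene counts. With 3 libraries per group the spread between them limits the precision, and the common biological coefficient of variation was 0.111.

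The 27 genes, the gene lists and the tests were chosen with earlier results of these data known. The rule used the stage contrasts, so these are described without a test. Levels are CPM from library sums, while folds come from edgeR 4.0.16 in R 4.3.3 (filterByExpr, TMM, glmQLFit and glmQLFTest, 1 fit of 9 group means, adjustment over all 23186 genes tested, threshold 0.05). Named genes were the 6 with the highest minimum level, the 3 largest and 3 smallest dips, up to 2 each way per comparison between species among calls whose libraries did not overlap, up to 2 each way per comparison of dips, those called the same way in both selfing species at all stages, and those nearest the limits of the rule. Others were named to account for all 27 and were picked after their values were seen. Alternatives were RLE size factors, DESeq2 1.42.0, no filter, a replicate block, the compared groups alone, stricter calls, other limits in the rule and each library left out. The fit was also run on simulated data, and its outcome is not given here. That run covered only C. rubella against C. grandiflora in expanding buds and the dip of C. orientalis against C. grandiflora. None of 30 gene lists could be matched to the identifiers, so lists and promoter motifs were not used here.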

Additional observations from a re-analysis of the deposited data

Results flagged for a closer look

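The size of the dip in dividing buds differed between species for a number of the 27 genes, by a test of the difference itself (edgeR's quasi-likelihood test with Benjamini-Hochberg adjustment over all genes). Such a difference was called for 8 of the 27 genes between C. rubella and C. grandiflora, for 10 between C. orientalis and C. grandiflora and for 13 between C. orientalis and C. rubella, beside 20.7%, 27.2% and 28.5% of all genes tested. The comparisons share libraries, and no cause was tested. With C. rubella minus C. grandiflora, the differences on the log2 scale were 1.04 for Carubv10015672m.g, 0.98 for Carubv10021409m.g, -1.08 for Carubv10017172m.g and -3.02 for Carubv10000408m.g. With C. orientalis minus C. grandiflora they were 2.66 for Carubv10027774m.g, 2.20 for Carubv10011293m.g, -2.56 for Carubv10005183m.g and -2.43 for Carubv10000408m.g. With C. orientalis minus C. rubella they were 3.36 for Carubv10027774m.g, 2.26 for Carubv10011293m.g, -1.82 for Carubv10005183m.g and -1.42 for Carubv10010000m.g. A positive value is a deeper dip in the first species named.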

How the results depend on the processing

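The number of genes meeting the rule was 49 at 3-fold and 16 at 6-fold over dividing buds, in place of 27 at 4-fold, and 26 to 29 when single libraries were left out. With TMM-scaled CPM 35 genes met it, of which 23 were among the 27. C. rubella against C. grandiflora in expanding buds gave 16 calls and, with a fold of at least 1.5 also asked for, 9. The other totals stayed within 1.5 times under the alternatives run (221 of 224). Counts per direction moved more, with 23 of 384 over 1.5 times from their value. Those moved by single libraries stand with the results. Leaving out single libraries gave 12 to 15, 17 to 20 and 16 to 19 calls in expanding buds for C. rubella against C. grandiflora, C. orientalis against C. grandiflora and C. orientalis against C. rubella, then for dividing buds 11 to 14, 15 to 17 and 16 to 21, for seedlings 9 to 12, 16 to 21 and 13 to 17, and 7 to 11, 9 to 12 and 10 to 15 for the dip. Of 660 alternatives for 47 named folds, 652 kept their direction and side of the threshold, 8 lost the call and 0 changed sign. The replicate block gave 16, 22 and 19 calls in expanding buds, for dividing buds 14, 16 and 21, for seedlings 14, 20 and 14, and 9, 12 and 15 for the dip. Replicate numbers were not used to pair samples in the main fit, and the labels do not say how libraries were numbered. Deviations of same-numbered libraries had a mean correlation of -0.0021 over 108 pairs, with 2 over 0.1. A mean over all groups cannot exclude pairing between some of them. Median folds over all genes moved by at most 0.07 with RLE size factors.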
